A study of Mus musculus with 2 samples.

Results

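The genes described here are the chemokines and chemokine receptors of the mouse liver, 59 of the 35275 genes in the expression table and of its 22026 protein-coding genes. They were chosen by name, as each protein-coding row whose symbol is a chemokine or receptor stem (Ccl, Cxcl, Xcl, Cx3cl, Ccr, Cxcr, Xcr, Cx3cr or Ackr) followed by a number and at most 1 letter from a to c. This gave 37 ligands and 22 receptors, and no measured value entered the choice. *Cxcl11* is annotated as a polymorphic pseudogene in the table and therefore falls outside the rule.

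Chemokines are small secreted proteins that draw leukocytes along gradients, many of them held on heparan sulfate at the endothelial surface. They are classed as CXC, CC, C and CX3C by the spacing of the first cysteines, and they act on receptors that signal through inhibitory G proteins to the cytoskeleton and to integrins. Atypical receptors bind the same ligands without that signal and carry or degrade them. In the liver, hepatocytes, sinusoidal endothelium, Kupffer cells and stellate cells are known sources, and chemokines are known there for the recruitment of neutrophils, monocytes and lymphocytes.

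The study asked how endotrophin acts on a fatty liver, and the comparison here is S1a/ETP against S1a/Ctrl. The mice were male littermates aged 12 months. All of them carried Alb-Cre, the Rosa26-loxP-STOP-loxP-rtTA allele and S1a, a truncated and constitutively active human SREBP1a under the rat PEPCK promoter. The paper states that lines of the endotrophin model were backcrossed to FVB, and it gives no strain for the S1a line. S1a/ETP mice also carried TRE-ETP, mouse endotrophin behind tetracycline-responsive elements. Endotrophin is the fragment cleaved from the carboxy terminus of the collagen VI alpha 3 chain. Alb-Cre switches rtTA on in cells that use the albumin promoter, so the transgene is confined by design to hepatocytes and their lineage. Both groups ate a diet with 200 mg/kg doxycycline for 10 months. Each group is 1 library made from the pooled liver RNA of 3 mice. The spread between mice was therefore not measured, no test between the groups was possible and no p-value is given.

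The deposited values are FPKM, fragments scaled to gene length and to sequencing depth, which allow levels of different genes to be compared per length. Undoing both scalings returned whole reads, and the depths were 19245078 reads for S1a/Ctrl and 14538808 reads for S1a/ETP. Ratios are given as log2 of S1a/ETP over S1a/Ctrl after adding 0.1 FPKM to both, which understates the difference of low genes. The square brackets hold the 95% exact Clopper-Pearson interval from the recovered reads, which covers counting error only. Where a library held no read of a gene, 3 reads were put in its place and the fold is given as a lower bound. That bound leaves out the counting error of the other library, so the interval may reach a smaller difference. Genes were compared from a mean of 0.1 FPKM upwards, and "2-fold" refers to the ratio after the addition of 0.1 FPKM. The albumin gene *Alb*, which marks hepatocytes, stood at 31534 FPKM in S1a/Ctrl and 31035 FPKM in S1a/ETP. Neither transgene has a row of its own, so the labels could not be checked through them. *Col6a3*, the mouse gene that holds the endotrophin sequence, was at 1.80 and 2.45 FPKM.

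The libraries differed in RNA of other cell types, and these values stand beside all that follows. All 11 neutrophil markers were at least 2-fold higher in S1a/ETP, from 85 and 3456 reads and with a summed level of 6.18 and 371 FPKM. The study had picked several of these markers from the same libraries, which makes the count no independent evidence. All 6 skeletal muscle markers had no read in S1a/ETP against 1906 reads and a summed 61.7 FPKM in S1a/Ctrl. The study had listed *Pvalb* among these on the same libraries, and the list was chosen with earlier results known. The muscle count is therefore no independent evidence. The part of neutrophil or muscle RNA in the chemokine values was not tested. In bulk RNA, fewer cells of a type and less RNA per cell cannot be told apart.

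Ligands stood well above receptors in both libraries. The ligands summed to 119 FPKM in S1a/Ctrl and 129 FPKM in S1a/ETP, and the receptors to 8.70 and 9.95 FPKM. Of the 59 genes, 53 had reads and 43 passed the filter, 28 ligands and 15 receptors. Reads were few for many of them: 38 genes had at least 10 reads in the libraries together, 15 had 1 to 9 and 6 had none. The 6 with none were *Ccl1*, *Ccl26*, *Ccl21b*, *Ccl27b*, *Ccr4* and *Ccr8*, listed at 0 in both libraries.

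**Figure D1:**
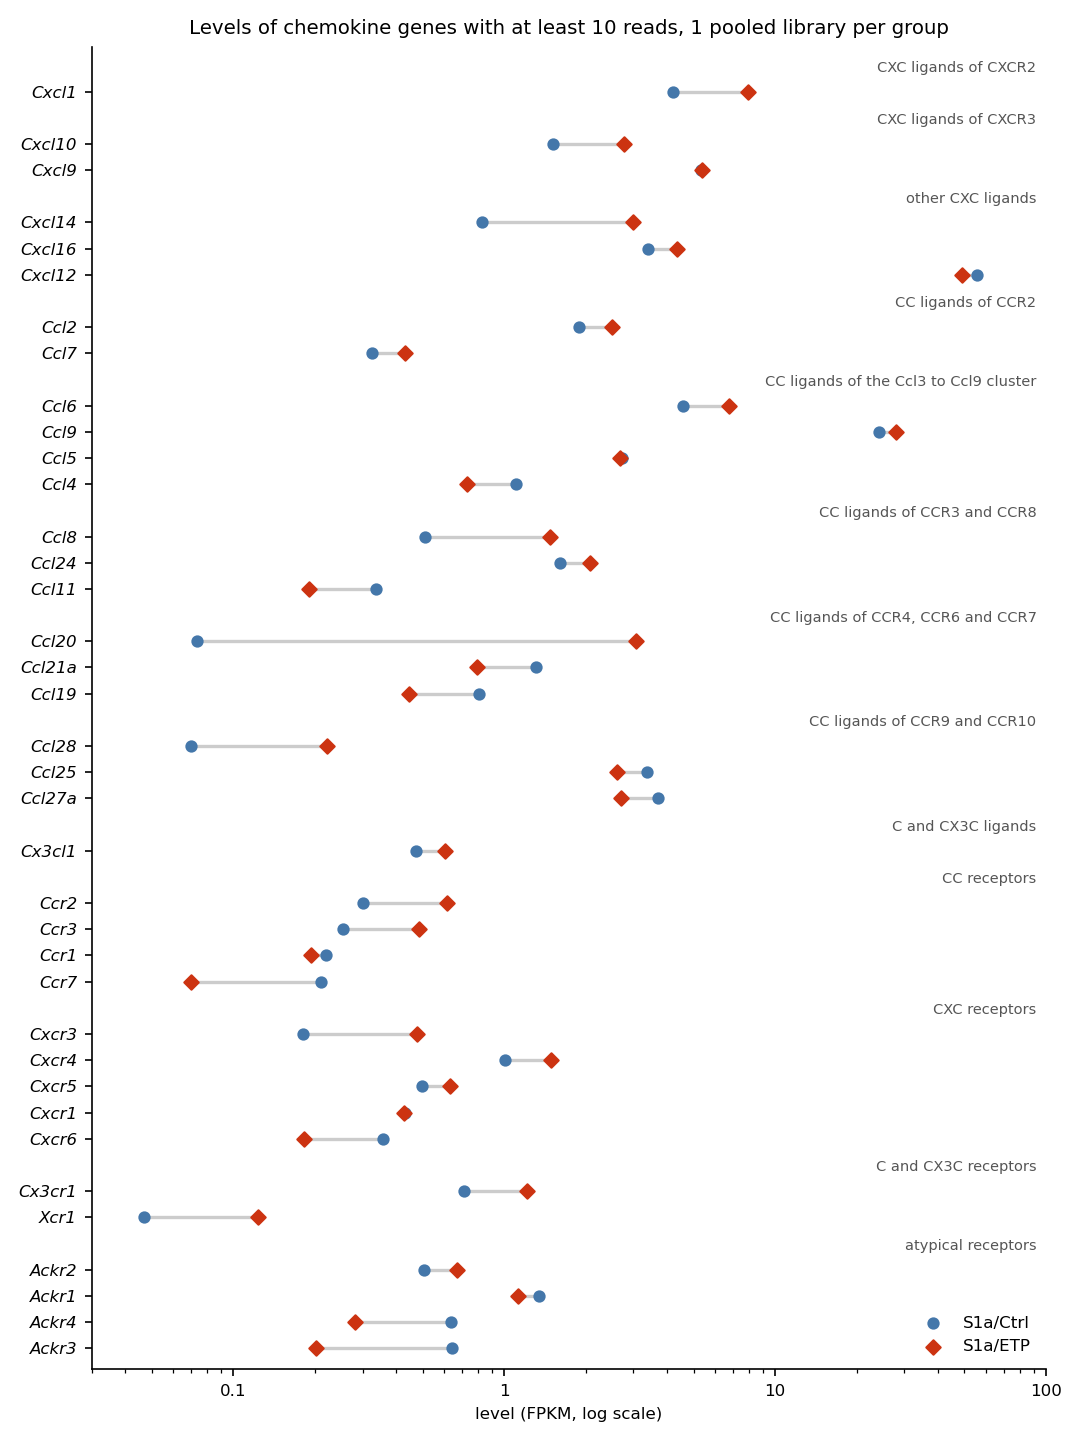
Level in FPKM (log scale) of 37 of the 38 chemokine and receptor genes with at least 10 reads, grouped by role, with circles for the S1a/Ctrl library and diamonds for the S1a/ETP library, 1 pooled library each. *Cxcl12* and *Ccl9* stand to the right of all others in both libraries, and the longest line joins the values of *Ccl20*, at 0.0733 and 3.06 FPKM.

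A single ligand, *Ccl20*, stood far from the others, at a log2 ratio of 4.19. At least 2-fold higher in S1a/ETP were 7 of the 43 genes, which is 16.3%, where the share over all 16042 genes compared was 6.42%. They were *Ccl20*, *Cxcl2*, *Ccl12*, *Cxcl14*, *Cxcl5*, *Ccl8* and *Cxcr3*. At least 2-fold lower were 3 genes, or 6.98%, against 6.25% of all genes, and these were *Ccl3*, *Cxcl15* and *Ackr3*. Among the 13750 protein-coding genes compared, the shares were 4.58% higher and 3.41% lower. The calls depended on low counts. A gene that passes the filter without a read in the other library is always past 2-fold, through the filter and the added 0.1 FPKM. This holds for *Cxcl2*, *Ccl12*, *Ccl3* and *Cxcl15*, and in the same way for the share over all genes and the lists below. Of the 29 genes with at least 20 reads, *Ccl20* and *Cxcl14* were at least 2-fold higher, or 6.90%, against 3.34% of the 13590 genes with as many reads. *Ackr3* alone was at least 2-fold lower, or 3.45%, against 2.66%.

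The counting interval lay above 0 for 11 of the 43 genes, or 25.6%, where the share over all genes was 22.4%. It lay below 0 for 5 genes, or 11.6%, against 17.5%. The median log2 ratio was 0.30 over the 43 genes, or 0.27 with genes at 0 in 1 library set to their bound, and 0.03 over all genes. Ratios lay above 0 for 26 genes and below 0 for 17, where over all 16042 genes compared they did for 8541 and 7501.

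**Figure D2:**
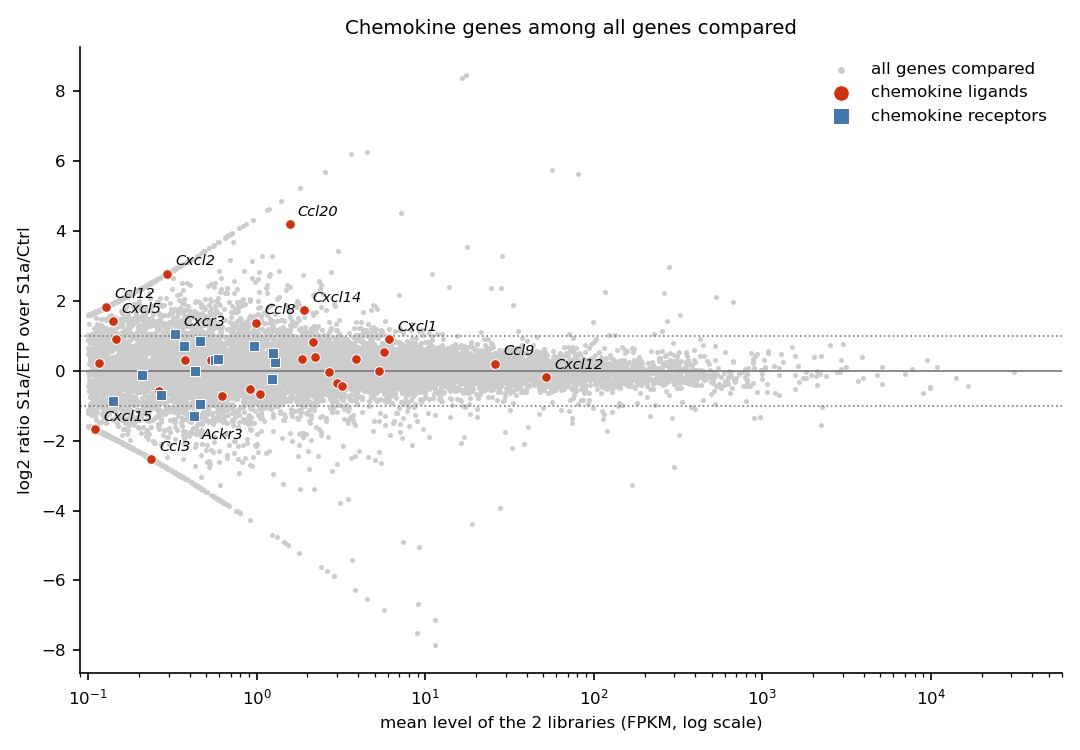
Log2 ratio of S1a/ETP over S1a/Ctrl against the mean FPKM of the libraries (log scale) for the 16042 genes compared in grey, with 28 chemokine ligands as circles and 15 receptors as squares, and dotted lines at 2-fold. The grey edges that fan out from the left are genes with no read in 1 library, and *Cxcl2* and *Ccl3* lie on them, while *Ccl20* at 4.19 lies above most genes of its level and *Cxcl14* at 1.73 at the upper edge of the cloud.

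The CXC ligands of CXCR2 are the main neutrophil attractants of the mouse. *Cxcl1* (chromosome 5, 90891241 to 90893115, plus strand), made by hepatocytes and endothelium among others, stood at 4.20 FPKM in S1a/Ctrl and 7.94 FPKM in S1a/ETP. It had 77 and 110 reads, a log2 ratio of 0.90 [0.48, 1.33]. *Cxcl1* was thus higher in S1a/ETP beyond counting error but short of 2-fold on this scale, and it carried most of the reads of its group.

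*Cxcl2*, made mainly by myeloid cells, had 0 and 9 reads, at least 3.97-fold higher, with a log2 interval from 0.97 to 2.78. *Cxcl5*, an epithelial attractant of neutrophils, had 1 and 6 reads, a log2 ratio of 1.41 [-0.03, 1.95]. Without the added 0.1 FPKM its fold was 7.94, with a counting interval from 0.964 to 365. *Cxcl3* had 0 and 2 reads, too few for a fold. All 4 CXCR2 ligands grouped here under the name rule therefore had more reads in the shallower S1a/ETP library. The sums were 78 and 127, although most of these rest on *Cxcl1*. These 4 genes lie with *Cxcl15* within 90759299 to 90905909 of chromosome 5. *Cxcl15*, a neutrophil attractant known from lung epithelium, was lower in the same cluster. It had 9 reads in S1a/Ctrl and none in S1a/ETP, at least 2.27-fold lower, with a log2 interval from -1.68 to -0.31. *Cxcl2* and *Cxcl3* share 5.84% of the 50-base words of *Cxcl2*, so a few of their reads may be split.

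*Cxcr2*, the receptor of these ligands on neutrophils, had 0 and 7 reads, at least 3.09-fold higher, and its mean lay under the filter. *Cxcr1*, its neighbour on chromosome 1, had 12 and 9 reads, a log2 ratio of -0.01 [-1.12, 1.09]. The reads of *Cxcr2* thus lay in the library with the higher neutrophil markers. Of these markers, *S100a8* stood at 1.99 and 111 FPKM and *S100a9* at 3.10 and 158 FPKM, both cytosolic calcium-binding proteins. *Ngp* and *Camp*, of the secondary granules, had no read in S1a/Ctrl and reached 34.8 and 33.1 FPKM in S1a/ETP, and *Ltf* had 1 and 357 reads. The median log2 ratio of the 11 markers was 5.63, or 4.91 with the 5 genes at 0 set to their bound.

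The promoter of *Cxcl1* is shown as that of the third highest ratio among members with at least 20 reads, after *Ccl20* and *Cxcl14*. It holds a match to the κB motif, the site class bound by NF-κB, a known regulator of these ligands. The 250 bases before its RefSeq start, at chr5:90890995-90891244 on the plus strand of GRCm38.p6, are given 5′ to 3′ with the κB match in capitals.
Cxcl1: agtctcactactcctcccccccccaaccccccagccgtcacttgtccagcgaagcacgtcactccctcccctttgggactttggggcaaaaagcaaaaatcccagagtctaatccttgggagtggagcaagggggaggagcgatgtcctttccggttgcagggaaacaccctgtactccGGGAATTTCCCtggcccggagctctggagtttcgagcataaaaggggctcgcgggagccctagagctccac
The match spans bases -71 to -61 from the start and reads as a κB site on both strands, in overlapping positions.

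*Cxcl9* and *Cxcl10*, ligands of CXCR3 induced by interferon gamma, attract activated T and NK cells. *Cxcl9* stood at 5.35 FPKM in both libraries, from 299 and 226 reads, a log2 ratio of 0.00 [-0.25, 0.25]. *Cxcl10* stood at 1.52 and 2.77 FPKM, from 32 and 44 reads, a ratio of 0.82 [0.17, 1.49]. The neighbouring genes thus differed in their ratios, with the interval of *Cxcl10* above 0 and overlapping that of *Cxcl9*. *Cxcl10* lies wholly within *Art3* on the opposite strand, which had 22 and 11 reads, and whether reads were assigned by strand is not given in the sources used here. *Cxcl11*, the third ligand of CXCR3 and outside the rule, was at 1.37 and 1.70 FPKM, a ratio of 0.30 [-0.10, 0.69].

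*Cxcr3* itself, carried by activated T and NK cells, had 6 and 12 reads, or 0.180 and 0.477 FPKM, a log2 ratio of 1.04 [-0.09, 2.06]. It counted as 2-fold higher, yet its counting interval reached below 0. The T cell markers did not point one way, with 102 and 54 reads in sum, none of 7 compared past 2-fold upward and 2 past it downward. *Cd4* had 26 reads in S1a/Ctrl and none in S1a/ETP, at least 6.55-fold lower, and *Cd3g* had 17 and 4. *Lck* had 19 and 15, which at the differing depths is a ratio of 0.05 [-0.82, 0.91]. Of the 7 ratios 4 lay above 0. Beside *Lck* these were *Cd3d* at 0.45 [-0.71, 1.58], *Cd8a* at 0.55 [-0.37, 1.40] and *Cd8b1* at 0.49 [-0.93, 1.69], named after their values were seen. The median over the list was 0.05. Of 7 NK cell markers only *Gzma* was compared, with 4 and 2 reads and a ratio of -0.39 [-1.87, 1.38], while *Gzmb* had 4 and 0 reads, and *Klrb1c* and *Eomes* were at 0 in both libraries. The 19 interferon-response genes compared held none past 2-fold in either direction, with a median of 0.03. Among them *Gbp2* was at -0.65 [-1.08, -0.22], *Gbp5* at 0.62 [0.12, 1.13], *Ifit3* at 0.54 [0.16, 0.92] and *Cd274* at -0.46 [-1.13, 0.21]. The most abundant, *Iigp1* and *Stat2*, were at -0.44 [-0.53, -0.35] and 0.02 [-0.09, 0.13].

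*Cxcl12*, which holds progenitor cells and lymphocytes through CXCR4, was the most abundant chemokine of both libraries. It stood at 55.6 FPKM in S1a/Ctrl and 49.0 FPKM in S1a/ETP, from 6018 and 4008 reads, a log2 ratio of -0.18 [-0.24, -0.12]. This small difference is the most precise of the family, and *Cxcl12* made up 46.7% of the summed ligand level in S1a/Ctrl and 38.0% in S1a/ETP. The receptor gene *Cxcr4* stood at 1.01 and 1.49 FPKM, from 35 and 39 reads, a ratio of 0.52 [-0.13, 1.16]. *Ackr3*, the atypical receptor that removes CXCL12, stood at 0.644 and 0.202 FPKM, from 38 and 9 reads, a ratio of -1.30 [-2.07, -0.49]. *Ackr3* was the only receptor at least 2-fold lower.

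*Cxcl14*, an epithelial chemokine whose receptor is not settled, was the second of the ligands that stood out on more than a few reads. It stood at 0.827 FPKM in S1a/Ctrl and 2.98 FPKM in S1a/ETP, from 29 and 79 reads, a log2 ratio of 1.73 [1.15, 2.33]. The whole interval lay above 2-fold. *Cxcl14* lies on chromosome 13 from 56288647 to 56296551, minus strand, away from other chemokine genes. Its promoter is shown for the second highest ratio among members with at least 20 reads, and it has no κB match. The 250 bases before the start lie at chr13:56296552-56296801 on the minus strand of GRCm38.p6 and are given 5′ to 3′, all in lower case.
Cxcl14: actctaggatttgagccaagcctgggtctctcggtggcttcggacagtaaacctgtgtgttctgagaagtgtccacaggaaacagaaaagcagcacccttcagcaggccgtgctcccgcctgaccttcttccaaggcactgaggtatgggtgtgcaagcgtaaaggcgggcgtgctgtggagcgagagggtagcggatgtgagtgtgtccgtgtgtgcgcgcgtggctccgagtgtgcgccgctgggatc
The same stretch holds a match to the GAS motif of STAT factors (TTCNNNGAA) from -191 to -183.

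*Cxcl16*, a membrane-bound ligand for the CXCR6 of resident T and NKT cells, stood at 3.41 and 4.33 FPKM. With 177 and 170 reads its ratio was 0.34 [0.03, 0.64], and 16.9% of its 50-base words also occur in the opposite-strand gene *Zmynd15*. *Cxcr6* had 13 and 5 reads, or 0.357 and 0.182 FPKM, a ratio of -0.70 [-1.74, 0.45], and lies within *Fyco1* on the opposite strand, at 945 and 625 reads. Ligand and receptor thus lay on opposite sides of 0, the receptor within its counting error. *Cxcl13*, which draws B cells through CXCR5, had 0 and 3 reads, and *Cxcl17*, of mucosal tissues, 1 and 0. *Cxcr5* had 27 and 26 reads, or 0.497 and 0.633 FPKM, a ratio of 0.30 [-0.41, 0.99]. Of the 7 B and plasma cell markers, 2 were at least 2-fold higher and 1 lower, with a median of 0.23. The joining chain gene *Jchain* was at 3.36 and 7.55 FPKM and 1.15 [0.77, 1.53], *Cd79b* at -0.22 [-1.20, 0.74] and *Mzb1* at 0.23 [-0.72, 1.16].

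**Figure D3:**
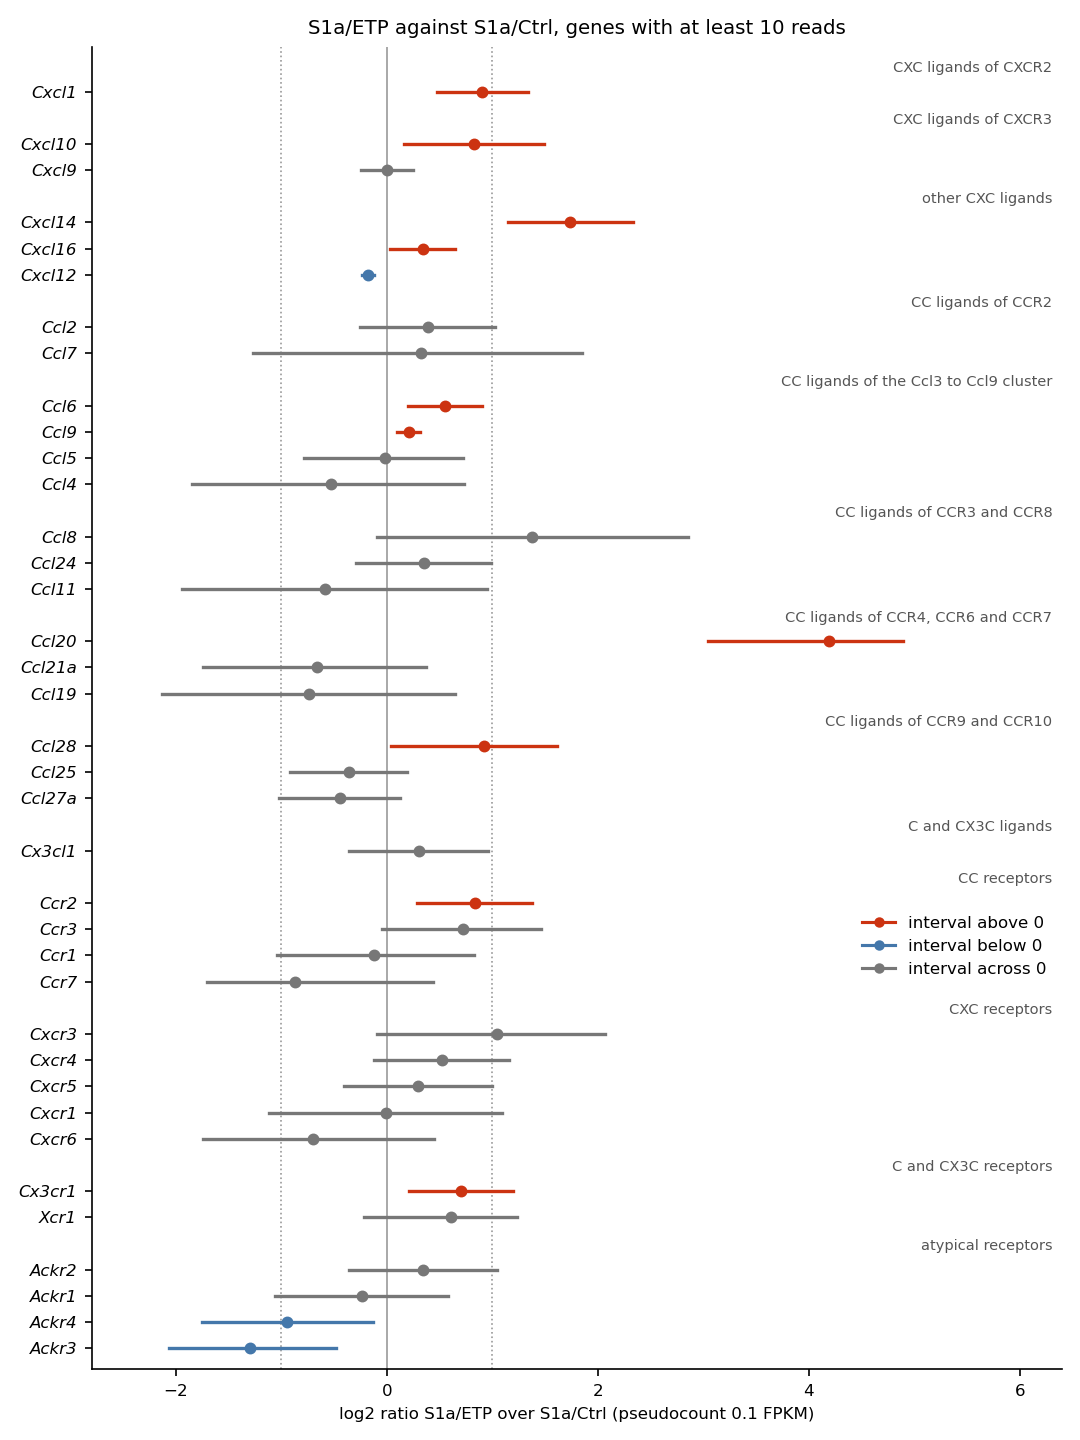
Log2 ratio of S1a/ETP over S1a/Ctrl (points, pseudocount 0.1 FPKM) with its 95% counting interval (lines) for 37 of the 38 genes with at least 10 reads, grouped by role, with dotted lines at 2-fold. Intervals above 0 belong to 10 genes, led by *Ccl20* at 4.19 and *Cxcl14* at 1.73, and intervals below 0 to *Cxcl12*, *Ackr4* and *Ackr3*.

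The CC ligands of CCR2 attract inflammatory monocytes. *Ccl2* stood at 1.90 FPKM in S1a/Ctrl and 2.51 FPKM in S1a/ETP, from 40 reads each, a log2 ratio of 0.39 [-0.25, 1.02]. *Ccl7* had 5 reads each, or 0.324 and 0.429 FPKM, a ratio of 0.32 [-1.27, 1.85], and *Ccl12* had 0 and 2 reads. No difference in these ligands was detectable at this depth, and *Ccl12* passed 2-fold on 2 reads alone.

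Their receptor *Ccr2*, carried by inflammatory monocytes, stood at 0.300 FPKM in S1a/Ctrl and 0.616 FPKM in S1a/ETP. It had 31 and 48 reads, a log2 ratio of 0.84 [0.29, 1.38], with the interval above 0. *Cx3cr1*, of patrolling monocytes and some macrophages, stood at 0.711 and 1.22 FPKM, from 51 and 66 reads, a ratio of 0.70 [0.21, 1.20]. Both monocyte receptors were thus higher beyond counting error. Of the 6 monocyte markers compared, 5 passed 2-fold upward around a median of 1.15. *Chil3*, also a neutrophil product and named by the study, had 0 and 163 reads, *S100a4* was at 1.40 [0.62, 2.21], *Ly6c2* at 1.25 [0.50, 1.97] and *F13a1* at 1.06 [0.31, 1.75]. *Fn1*, the most abundant and made by hepatocytes too, was at 0.60 [0.57, 0.63]. The part of monocyte number in the receptor values was not tested. *Cx3cr1* overlaps several genes, among them *Gorasp1* and *Csrnp1* on its own strand, so some reads may be theirs.

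*Cx3cl1*, the membrane-tethered ligand of CX3CR1, had 30 and 29 reads, or 0.471 and 0.602 FPKM, a ratio of 0.30 [-0.36, 0.95]. *Xcl1* had 1 read in each library and its receptor *Xcr1*, of cross-presenting dendritic cells, 4 and 8 reads, or 0.0467 and 0.124 FPKM, a ratio of 0.61 [-0.22, 1.23]. *Xcl1* passed the filter narrowly with a ratio of 0.22 [-1.52, 1.81], while the mean of *Xcr1* lay under it, and none of these intervals lay off 0. Of the 6 dendritic cell markers none passed 2-fold, with a median of 0.21. *Clec9a*, on the same cells as *Xcr1*, was at 0.20 [-0.39, 0.78], and *Zbtb46* and *Itgax* were at -0.07 [-0.47, 0.32] and 0.05 [-0.51, 0.61].

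The CC ligands from *Ccl3* to *Ccl9*, which attract monocytes, T cells and other leukocytes, included the second most abundant chemokine, *Ccl9*, a ligand of CCR1 in rodents. It stood at 24.2 FPKM in S1a/Ctrl and 27.9 FPKM in S1a/ETP, from 1398 and 1218 reads, a log2 ratio of 0.20 [0.09, 0.32]. *Ccl6*, another myeloid ligand of CCR1 in rodents, stood at 4.58 and 6.73 FPKM, from 127 and 141 reads, a ratio of 0.55 [0.20, 0.90]. Both were higher beyond counting error and by less than 2-fold. *Ccl5*, made by T and NK cells, stood at 2.72 and 2.68 FPKM, from 35 and 26 reads, a ratio of -0.02 [-0.78, 0.72]. *Ccl4* had 14 and 7 reads, or 1.10 and 0.730 FPKM, a ratio of -0.54 [-1.85, 0.73]. *Ccl3* had 7 reads in S1a/Ctrl and none in S1a/ETP, at least 1.76-fold lower. *Ccl3* counted as 2-fold lower through the added 0.1 FPKM, while its bound lies short of that size.

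These 5 genes lie side by side on chromosome 11 between 83525778 and 83664683. The abundant pair was slightly higher and the others were at or below 0. *Ccr1*, the receptor of several of them on myeloid cells, stood at 0.220 FPKM in S1a/Ctrl and 0.194 FPKM in S1a/ETP, from 12 and 8 reads, a log2 ratio of -0.12 [-1.04, 0.82]. No difference in *Ccr1* was detectable at this depth. All 11 Kupffer cell and macrophage markers were above 0 in their ratios, as were 8541 of all 16042 genes compared. Their median was 0.41, and 1 of them, *Marco*, was at least 2-fold higher at 1.59 [0.52, 2.49]. *Cd68* was at 0.77 [0.49, 1.05], *Vsig4* at 0.57 [0.35, 0.80], *Adgre1* at 0.53 [0.18, 0.89], and the abundant *C1qa* and *Cd5l* at 0.41 [0.27, 0.54] and 0.40 [0.30, 0.51].

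Among the ligands of CCR3 and CCR8, *Ccl8*, a CCR8 ligand in mice, had 5 and 11 reads, or 0.508 and 1.48 FPKM, a log2 ratio of 1.38 [-0.09, 2.85]. *Ccl24*, an eotaxin, stood at 1.61 and 2.08 FPKM, from 40 and 39 reads, a ratio of 0.35 [-0.29, 0.99]. *Ccl11*, the first-named eotaxin, had 7 and 3 reads, or 0.336 and 0.191 FPKM, a ratio of -0.59 [-1.94, 0.95]. Each interval reached across 0, that of *Ccl8* only just. Their receptor on eosinophils, *Ccr3*, had 16 and 23 reads, or 0.254 and 0.483 FPKM, a ratio of 0.72 [-0.04, 1.46]. Among the eosinophil and mast cell markers 2 of 7 were compared, and their median was 2.12, or 1.63 with the gene at 0 set to its bound. The eosinophil granule gene *Prg2*, which the study had listed on these libraries, had 0 and 21 reads, at least 9.27-fold higher. *Kit* was at 0.05 [-0.39, 0.48], and *Il5ra* and *Fcer1a* were at 0 in both libraries. Under the filter, *Siglecf* had 4 and 3 reads, *Epx* 0 and 3 and *Cpa3* 3 and 0, named after their values were seen. The part of eosinophil number was not tested.

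*Ccl20*, the sole chemokine ligand of CCR6, had the highest ratio of the family. It draws CCR6-bearing T helper 17 cells, B cells and immature dendritic cells, and it is known as a product of epithelia under interleukin-17, interleukin-1 and tumor necrosis factor. It stood at 0.0733 FPKM in S1a/Ctrl and 3.06 FPKM in S1a/ETP, from 2 and 63 reads, a log2 ratio of 4.19 [3.04, 4.90]. Without the added 0.1 FPKM its fold was 41.7, with a counting interval from 11.1 to 352. *Ccl20* ranked 25 of the ligands in S1a/Ctrl and 7 in S1a/ETP by level. The study had itself singled the gene out on these libraries, so its ratio is not independent evidence. *Ccr6* had 3 and 2 reads and lay under the filter, so no matching value in the receptor was detectable at this depth.

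The promoter of *Ccl20* is shown because its gene had the largest difference. The gene lies on chromosome 1 from 83116766 to 83119167, plus strand, and the 250 bases before its start are chr1:83116516-83116765 of GRCm38.p6, given 5′ to 3′ with the κB match in capitals.
Ccl20: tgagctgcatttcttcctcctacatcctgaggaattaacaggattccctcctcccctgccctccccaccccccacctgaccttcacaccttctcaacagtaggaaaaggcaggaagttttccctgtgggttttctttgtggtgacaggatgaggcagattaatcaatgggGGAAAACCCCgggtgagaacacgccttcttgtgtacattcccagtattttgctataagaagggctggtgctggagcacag
The match spans -80 to -71 from the start.

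The inducers of *Ccl20* and the NF-κB response were read from a list of 32 genes, of which 26 were compared. *Tnfaip2* alone was at least 2-fold higher, at 1.02 [0.80, 1.24], none was as much lower, and the median was 0.23. The NF-κB cofactor gene *Bcl3* was at 0.81 [0.53, 1.10], the feedback gene *Tnfaip3* at 0.72 [0.37, 1.08] and *Cebpd* at 0.68 [0.44, 0.92], while the abundant *Cebpb* and *Nfkbia* were at -0.05 [-0.14, 0.04] and -0.24 [-0.41, -0.06]. The cytokine genes *Il17a*, *Il17f*, *Il6* and *Il13* were listed at 0 in both libraries, *Tnf* had 7 and 6 reads and *Il1b* 7 and 12. These 6 were named after their values were seen.

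Ligands of CCR4 and CCR7 were low. *Ccl17* had 1 and 0 reads and *Ccl22*, which with it draws regulatory and type 2 T cells, 3 and 1. *Ccl19*, a lymphoid-tissue ligand of CCR7, had 12 and 5 reads, or 0.807 and 0.445 FPKM, a ratio of -0.73 [-2.14, 0.65]. *Ccl21a*, its partner on lymphatic and stromal cells, had 22 and 10 reads, or 1.31 and 0.791 FPKM, a ratio of -0.67 [-1.75, 0.37]. *Ccr7* had 8 and 2 reads, or 0.210 and 0.0695 FPKM, a ratio of -0.87 [-1.71, 0.44]. All 3 lay below 0 with intervals across it. *Ccl19* shares 52.0% of its 50-base words with *Gm2564* and *Ccl21a* shares 71.6% with *Gm21541*, so the values of both are uncertain. *Ccl21b* and *Ccl27b*, listed at 0, share 100% and 98.1% of theirs with near-identical copies. The 3 lymphatic endothelium markers had a median of -0.01, with *Prox1*, also a hepatocyte gene, at -0.01 [-0.12, 0.10], *Pdpn* at -0.34 [-1.35, 0.67] and *Flt4* past 2-fold upward with 1226 and 1862 reads, or 10.2 and 20.5 FPKM.

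The ligands of CCR9 and CCR10 serve mucosa and skin. *Ccl25* stood at 3.37 FPKM in S1a/Ctrl and 2.60 FPKM in S1a/ETP, from 72 and 42 reads, a log2 ratio of -0.36 [-0.92, 0.19]. *Ccl27a* stood at 3.70 and 2.69 FPKM, from 71 and 39 reads, a ratio of -0.45 [-1.03, 0.12], and shares 28.4% of its 50-base words with *Gm20878*. *Ccl28* had 5 and 12 reads, or 0.0696 and 0.221 FPKM, a ratio of 0.92 [0.03, 1.61]. Of the 3, *Ccl28* alone had an interval off 0, by a small margin. The receptors were nearly empty, *Ccr9* with 5 and 0 reads, 1.26-fold lower against 3 reads, and *Ccr10* with 1 and 3. The log2 interval of *Ccr9*, from -0.69 to 0.14, reached across 0. *Ccr9* also overlaps *Lztfl1* on the opposite strand, at 186 and 88 reads. *Ccr10* lies within *Cntnap1*, a gene on the other strand with 617 and 1051 reads, so its reads are uncertain.

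The atypical receptors, which clear or transport chemokines, were the receptor group with the lowest median, at -0.59 over 4 genes. Beside *Ackr3*, *Ackr4*, which degrades CCL19, CCL21 and CCL25, stood at 0.636 FPKM in S1a/Ctrl and 0.280 FPKM in S1a/ETP, from 33 and 11 reads, a ratio of -0.95 [-1.75, -0.13]. *Ackr4* overlaps *Acad11*, an abundant gene on the opposite strand at 4709 and 3477 reads. *Ackr1*, of venular endothelium, had 30 and 19 reads, or 1.35 and 1.13 FPKM, a ratio of -0.24 [-1.07, 0.58], and shares 20.4% of its 50-base words with *Cadm3*. *Ackr2*, a scavenger of inflammatory CC ligands, had 27 reads each, or 0.504 and 0.667 FPKM, a ratio of 0.34 [-0.36, 1.04]. The intervals of *Ackr3* and *Ackr4* lay below 0 and those of *Ackr1* and *Ackr2* across it. The 8 sinusoidal endothelium markers held none past 2-fold and had a median of -0.05, with *Clec4g* at 0.04 [-0.15, 0.23], *Fcgr2b* at -0.11 [-0.30, 0.08], *Lyve1* at -0.29 [-0.78, 0.19], *Oit3* at -0.12 [-0.43, 0.18] and *Cdh5* at 0.22 [-0.05, 0.48]. The part of the muscle RNA of the S1a/Ctrl library, seen in *Acta1* at 493 and 0 reads, *Tnnt3* at 475 and 0, *Ckm* at 247 and 0 and *Pvalb* at 98 and 0, in the values of *Ackr3* and *Ackr4* was not tested.

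The 6 chemokine ligands with reads and a κB match were then set side by side, to show the letters that the match covers in genes of different ratio. The remaining ligand with a match, *Ccl1*, from -196 to -186, had no reads and is not shown. Windows of 40 bases from the RefSeq promoters of GRCm38.p6 are given 5′ to 3′ on each gene's strand, with the match in capitals, for *Ccl20* (chr1:83116671-83116710), *Cxcl1* (chr5:90891159-90891198), *Cxcl2* (chr5:90903787-90903826), *Cxcl3* (chr5:90786013-90786052), *Cxcl10* (chr5:92348969-92349008) and *Ccl9* (chr11:83578647-83578686).
Ccl20: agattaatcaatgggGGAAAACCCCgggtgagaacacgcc
Cxcl1: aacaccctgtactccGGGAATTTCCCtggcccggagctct
Cxcl2: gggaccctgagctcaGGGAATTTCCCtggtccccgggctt
Cxcl3: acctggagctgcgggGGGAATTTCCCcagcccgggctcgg
Cxcl10: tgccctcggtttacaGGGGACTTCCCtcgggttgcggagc
Ccl9: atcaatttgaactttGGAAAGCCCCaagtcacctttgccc
*Cxcl1*, *Cxcl2* and *Cxcl3*, neighbours on chromosome 5, carry the same letters in capitals, from -71, -97 and -73. The promoter of *Cxcl10* held 3 matches, not all of them within the stretch in capitals. Among those of the 6 with at least 10 reads, ratios ran from 0.20 for *Ccl9* to 4.19 for *Ccl20*.

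Promoters were found for 45 of the 59 genes, and 11 of the 45, or 24.4%, held a κB match in the 250 bases before the start, where 7.28% of 32536 promoters did. They were *Ccl1*, *Ccl9*, *Ccl20*, *Cxcl1*, *Cxcl2*, *Cxcl3*, *Cxcl10*, *Ccr1*, *Ccr3*, *Ccr6* and *Ackr2*. The C/EBP motif TTGCNNAA was in 5 of the 45 and in 9.57% of all promoters, the AP-1 motif TGANTCA in 6 and in 6.73%, the GAS motif TTCNNNGAA in 3 and in 7.04%, and the TATA motif TATAAA in 14 and in 12.3%. Both strands were searched, and neighbouring copies share letters through common descent. Members were counted by gene, with a match in any promoter of the gene, and the background by promoter sequence, which can favor the members. A match describes letters in this window and shows no binding.

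Genes that carry the signal from chemokine receptors were read from a list of 39, all compared. Of these, 35 had a ratio above 0, where 8541 of all 16042 genes compared did. At least 2-fold higher were 5 and none was as much lower, with a median of 0.37. The higher ones act mainly in leukocytes: *Gpsm3*, a regulator of G protein subunits, at 2.76 [1.77, 3.70], *Dock2* at 1.64 [1.14, 2.11] and *Elmo1* at 1.50 [0.83, 2.13], partners in the activation of Rac, and *Pik3r5*, a subunit of the G protein-driven PI3 kinase, at 1.30 [0.64, 1.92]. The fifth, *Rac2*, at 1.06 [0.68, 1.45], was named after its values were seen. *Gpsm3* was among genes the study listed on these libraries. The abundant *Cdc42* and *Gnb2*, which every cell uses, were at 0.18 [0.11, 0.25] and 0.15 [0.06, 0.24].

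Attractants outside the name rule, 18 compared, held 3 genes past 2-fold upward and 1 downward, with a median of 0.46. The complement C5a receptor genes lay on opposite sides of 0, *C5ar1* with 14 and 30 reads at 1.24 and *C5ar2*, which does not couple to G proteins, at -1.20 [-1.94, -0.36]. The formyl peptide receptor gene *Fpr1* had 13 and 23 reads, a ratio of 1.09, and *Cd74*, a receptor for MIF and the invariant chain of MHC class II, was at 46.2 and 95.5 FPKM and 1.04 [0.94, 1.15]. The abundant *Mif* and *Hebp1* were at -0.02 [-0.09, 0.06] and -0.34 [-0.41, -0.28]. The 22 genes that cleave or tether chemokines held 5 at least 2-fold higher, none as much lower, and a median of 0.29. All 5 are proteases stored in neutrophil granules: *Elane* with 0 and 68 reads, *Mmp8* with 0 and 25, *Prtn3* at 2.57 [1.74, 3.42], *Mmp9* at 2.52 [1.74, 3.16], and *Ctsg*, named after its values were seen, with 0 and 16 reads. The study had listed all of these but *Ctsg* on these libraries, and *Elane* and *Mmp8* are also among the neutrophil markers above. The count of 5 is therefore no independent evidence. The heparan sulfate carriers *Sdc4* and *Sdc1*, the most abundant of the list, were at -0.41 [-0.46, -0.35] and 0.57 [0.51, 0.64].

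**Figure D4:**
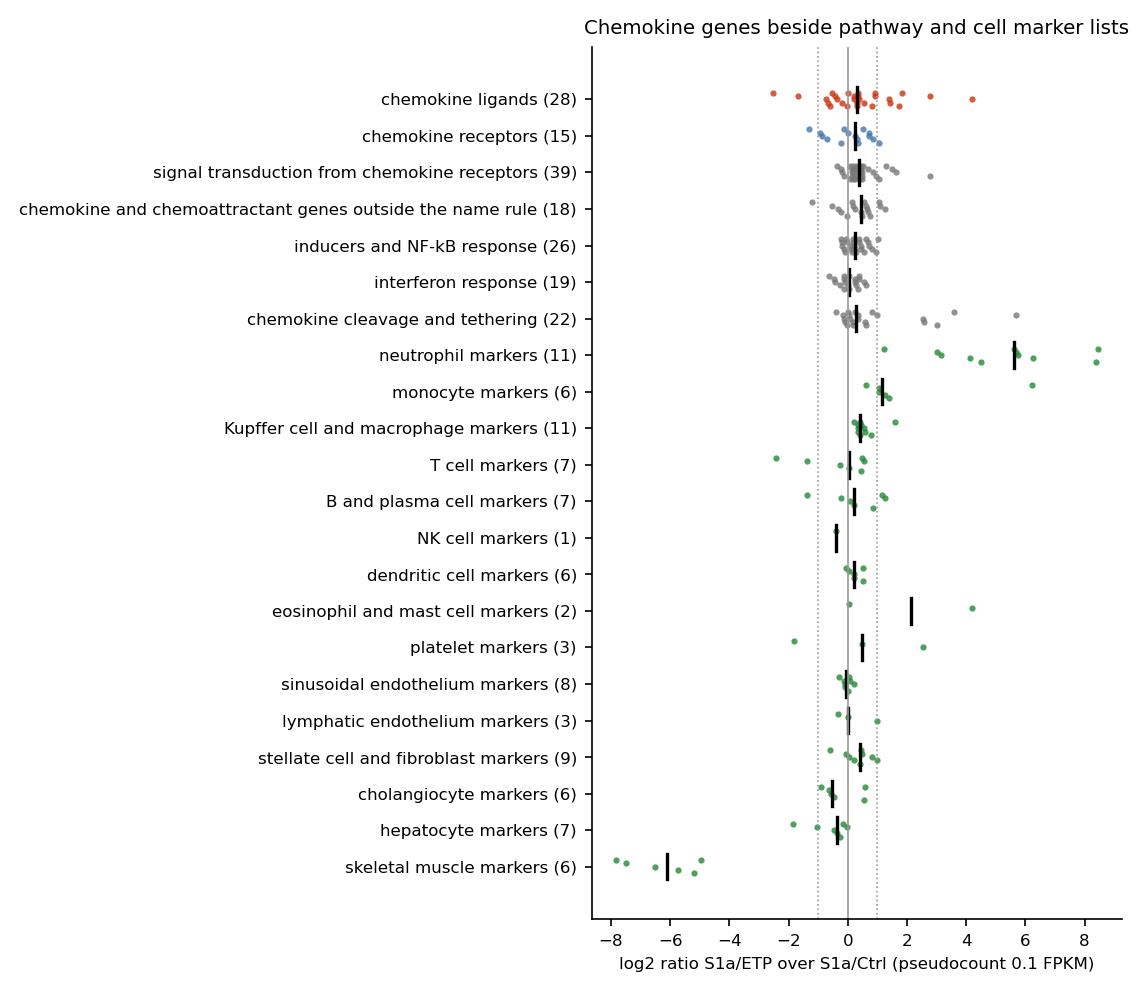
Log2 ratios of S1a/ETP over S1a/Ctrl for the chemokine ligands and receptors that passed the filter, 5 pathway lists and 15 cell marker lists, with 1 point per gene, the number compared in parentheses, a black bar at the median and dotted lines at 2-fold. The ligands spread from -2.52 to 4.19 around a median of 0.31 and the receptors from -1.30 to 1.04 around 0.25, while neutrophil and skeletal muscle markers lie far to either side.

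Markers of the cells that make chemokines in the liver differed less in their medians than the neutrophil and skeletal muscle markers. The 7 hepatocyte markers all had intervals below 0, with a median of -0.38 and 2 at least 2-fold lower, *Serpina1c* at -1.85 [-1.91, -1.79] and *Cyp2e1* at -1.04 [-1.05, -1.02]. *Apoa1* was at -0.47 [-0.48, -0.46] and *Ttr* at -0.38 [-0.39, -0.37]. The most abundant, *Alb*, was at -0.02 [-0.03, -0.02] on the FPKM scale. This difference is smaller than the shift of 0.07 under TPM, so its side of 0 depends on the scaling. The 9 stellate cell and fibroblast markers held none past 2-fold and had a median of 0.40, with *Col1a1* at 0.97 [0.76, 1.19], *Col1a2* at 0.81 [0.65, 0.98], *Lrat* at 0.48 [0.28, 0.69], *Des* below 0 at -0.60 [-0.96, -0.25] and the abundant *Dcn* and *Col3a1* at 0.02 [-0.05, 0.10] and 0.45 [0.35, 0.55]. The 6 cholangiocyte markers went both ways, with a median of -0.52, none past 2-fold, 2 intervals above 0 and 2 below. *Cldn7* was at -0.91 [-1.83, -0.01], *Epcam* at -0.65 [-1.12, -0.18] and *Krt7* at -0.57 [-1.19, 0.06]. *Spp1*, shared with macrophages, was at 0.57 [0.50, 0.63], and *Sox9*, named after its values were seen, at 0.56 [0.10, 1.01]. Of the 5 platelet markers 3 were compared, with 1 past 2-fold upward, *Gp1bb* at 0 and 13 reads, and 1 downward, *Treml1* at 6 and 0 reads, named after its values were seen. *Itga2b* was at 0.48 [0.08, 0.88], which is the median. The part of any cell type in the chemokine values was not tested.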

How the data were processed

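Liver RNA was sequenced by Novogene, and the libraries were matched to S1a/Ctrl and S1a/ETP by their labels and the design text of the series. Expression was deposited as FPKM, with length, position and biotype of each gene. No column of it was left out (0 columns not used). The mm10 build, edgeR 3.16.5 and DESeq2, GATK 4.1 and STAR-Fusion 1.5.0, and StringTie 1.3.3b, HTSeq 0.6.1 and STAR appear in the submitters' processing notes, with no role given there. The authors used edgeR for their differential expression analysis. How reads were filtered or assigned by strand, and to which annotation, is not given in the sources used here. Values of genes that overlap or have near-identical copies are therefore uncertain.

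FPKM multiplied by gene length and depth gave whole reads for 100% of values within 0.01 reads. The count test of replicated designs was not run, since 1 library per group leaves no spread. Ratios used a pseudocount of 0.1 FPKM, a filter at a mean of 0.1 FPKM, and the study's 2-fold size, without its p-value threshold. Intervals (95%) and the floor of 3 reads cover counting error only, and PCR copies are not independent molecules. A list's median was also taken with genes at 0 in 1 library set to their bound, leaving out those with up to 3 reads in the other.

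Members and lists were chosen with earlier results of these data known. The 20 lists held 246 names, of which 1 was not matched, 4 were matched by ID, 1 repeated a gene under its other symbol and 5 were members and were left out, which leaves 239 genes. Each member was to be accounted for, and 1 receptor gene is included in the counts but not reported here or plotted by name. Members with at least 10 reads are given with FPKM, reads and ratio, those with 1 to 9 with reads. From other lists, up to 4 genes with at least 20 reads and the largest ratios and the 2 most abundant were named, and others are marked. Promoters were printed for the 3 members of at least 20 reads with the highest ratios. Proteins are not shown. Promoters came from RefSeq (GRCm38.p6), shared 50-base words from the transcripts of GENCODE M21. The steps were tested on simulated data. Python 3.11.15, numpy 2.4.6, pandas 2.3.3, scipy 1.17.1 and matplotlib 3.10.9 were used.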

Additional observations from a re-analysis of the deposited data

How the results depend on the processing

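The count of 7 chemokine genes at least 2-fold higher became 2 with a pseudocount of 1 FPKM, with a filter at a mean of 1 FPKM and among genes with at least 20 reads, the last chosen after seeing the data, and these 2 were *Ccl20* and *Cxcl14* each time. At 4-fold 2 were left, *Ccl20* and *Cxcl2*. The count of 3 lower became 0, 0, 1 and 1 in the same order, and 5 with a pseudocount of 0.01 FPKM. Over all genes the 1030 higher became 128 with the pseudocount of 1 FPKM, 241 with the filter at 1 FPKM, 454 with at least 20 reads, 264 at 4-fold and 630 among protein-coding genes, and the 1003 lower became 169, 203, 362, 338 and 469. The median of the chemokine genes was 0.13 with a pseudocount of 1 FPKM in place of 0.30. Setting the median of all genes to 0, TPM and leaving out the 100 most abundant genes shifted ratios (for the last pair, the median shift of genes from 1 FPKM upwards) by -0.03, 0.07 and 0.03 on the log2 scale, with larger moves of low genes under TPM (*Ccl20* from 4.19 to 4.68, *Cxcl15* from -1.68 to -2.34), and left 7 to 8 higher and 3 to 4 lower, and leaving out the filter gave 10 and 4. No 2-fold call turned its direction, while 3 ratios next to 0 changed sign. *Cxcl9* went from 0.00 to -0.03 with the median at 0. Under TPM and without the most abundant genes, *Ccl5* went from -0.02 to 0.05 and 0.01, and *Cxcr1* from -0.01 to 0.05 and 0.02. List medians were not recomputed under rescaling. With 1 pooled library per group, variation among mice and among library preparations was not measured, so a counting interval off 0 shows a difference between these libraries only. At this depth 21 of the 59 genes had fewer than 10 reads, and a gene with no read may still be expressed.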
